A study of Drosophila melanogaster with 4 samples.

Results

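The cytosolic ribosomal protein genes of Drosophila were followed in poly(A) RNA from S2 cells, a cultured line of hemocyte character derived from late embryos. Members were taken by FlyBase symbol: names that begin with RpL or RpS and a number, the acidic stalk names RpLP0, RpLP1, RpLP2 and RpLP0-like, and sta, the small subunit protein that is called SA in other animals. The rule found 93 genes among the 17697 that the deposited tables list, of which 50 belong to the large subunit, 39 to the small subunit and 4 carry stalk names. Of these, 79 are single genes or the main copy of a pair, and 14 are second copies.

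The study sequenced 4 libraries from cells whose genotype the labels give as wild type. In the heat shock group, 2 libraries came from cells kept at 37 °C for 1 h and then returned to 27 °C for 1 h. In the untreated group, 2 libraries came from cells grown at 27 °C without stress. All were grown in DMEM with 10% FBS, and nothing in the labels says whether the libraries of a group came from separate cultures, so a p-value below measures only the spread between these libraries. Estimated counts summed to 11988483 and 10602190 in the heat shock libraries, against 10221418 and 10354706 in the untreated libraries. Of 11 S2 and hemocyte markers, 6 reached 1 TPM (a level corrected for gene length and library depth) in every library, among them srp, ush and crq, and 2 (He and NimC1) stayed under 3 counts. The 11 summed to 394 and 359 TPM in heat shock libraries, against 537 and 552 TPM in untreated libraries, while markers of muscle and of fat body summed to less than 1 TPM in each library. A list of 3 neuron markers summed to 24.2 and 25.7 TPM in heat shock libraries, against 28.0 and 31.3 TPM in untreated libraries, and 1 of them, elav, reached 1 TPM in every library.

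Each cytosolic ribosome holds 1 copy of nearly every ribosomal protein, so cells make these proteins in similar numbers. The small subunit reads the mRNA, the large subunit joins amino acids, and the stalk (P0 with pairs of P1 and P2) recruits the elongation factors. Fly ribosomal protein genes are short, strongly transcribed and often haploinsufficient, which gives the Minute phenotype of slow growth and thin bristles. Their mRNAs begin with a pyrimidine tract through which the growth pathway of Tor and the RNA-binding protein Larp act on their translation. Heat shock is known in flies for the transcription of chaperone genes and for a stop in the translation of most other mRNAs.

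Ribosomal protein mRNAs took a smaller share of the heat shock libraries than of the untreated ones. The 93 genes held 9.04% and 8.78% of all counts in the heat shock libraries (95% Wilson intervals of 9.02 to 9.05% and 8.76 to 8.80%), against 10.49% and 10.32% in the untreated libraries (10.47 to 10.51% and 10.30 to 10.34%). These intervals cover counting error only. The mean share was 8.91% ± 0.18 after heat shock and 10.4% ± 0.12 in untreated cells (SD, n = 2 each), a difference of -1.50 percentage points or -0.22 on the log2 scale. The groups did not overlap, and the exact two-sided permutation p was 0.333, which is the smallest that 2 libraries against 2 can give. Since only shares were measured, less RNA per cell and fewer cells that make it cannot be told apart, nor can either from more of other RNA.

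The direction of that difference depended on whether heat shock genes were counted in the total. Leaving them out raises the share of every other gene in the heat shock libraries by construction. The 16 genes of a list of Hsp genes and their cochaperones held 21.5% and 23.7% of the counts after heat shock, against 0.623% and 0.586% in untreated cells. Among the counts outside those 16 genes, ribosomal protein genes held 11.5% in both heat shock libraries, against 10.6% and 10.4% in the untreated libraries, which is 1.04 percentage points more after heat shock. With each gene corrected for its length, the members held 25.7% and 25.2% of all TPM in the heat shock libraries, against 29.4% and 29.1% in the untreated libraries. Of the 100 genes with the highest mean TPM, 58 were members after heat shock and 65 in untreated cells. The balance of the subunits overlapped between groups: the large subunit had 1.82 and 1.70 counts for each small subunit count in heat shock libraries, against 1.67 and 1.75 in untreated libraries (exact permutation p = 0.667).

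**Figure D1:**
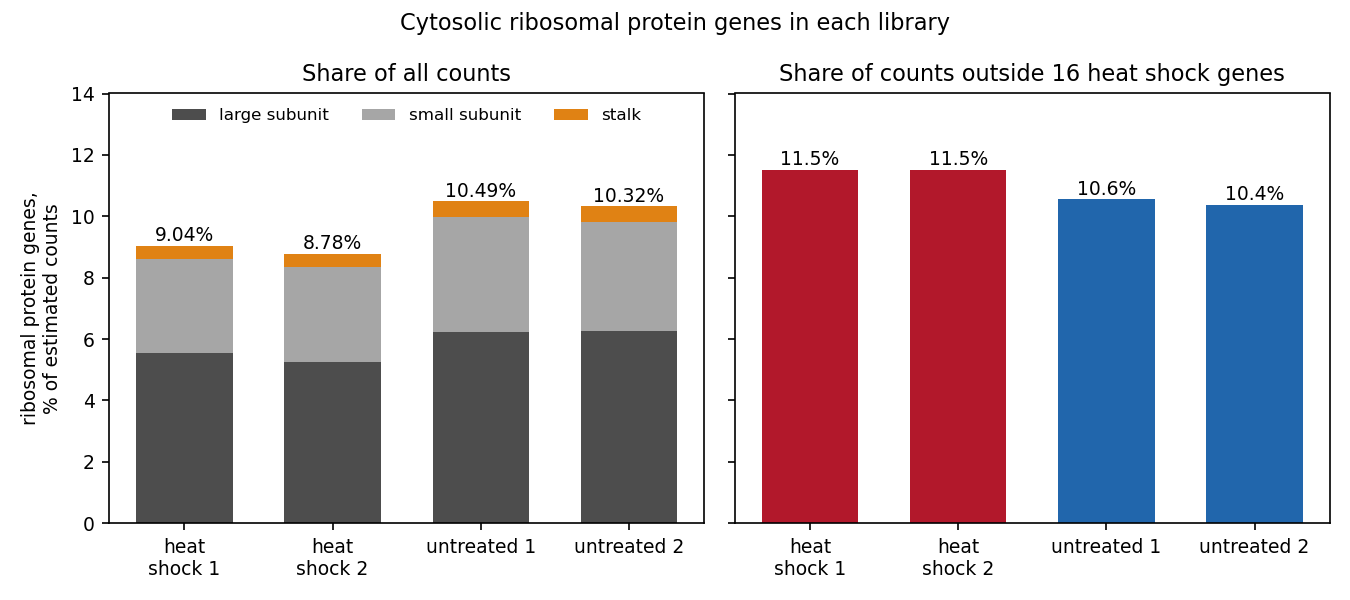
Share of each library held by the 93 cytosolic ribosomal protein genes, in percent of estimated counts, stacked by large subunit, small subunit and stalk on the left, and as a share of the counts outside 16 heat shock genes on the right. Each bar is 1 library. On the left both heat shock bars (9.04% and 8.78%) are lower than both untreated bars (10.49% and 10.32%), and on the right both heat shock bars (11.5%) are higher than the untreated bars (10.6% and 10.4%).

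The members were then compared gene by gene with the quasi-likelihood test of edgeR under 3 scalings, each with a stated zero. TMM scaling sets the bulk of tested genes to no change, library totals give the change as a share of all RNA sequenced, and scaling on the summed members asks how a gene moved against the other ribosomal protein genes. Of the 93 members, 86 had enough counts to be tested among 8784 genes. With TMM scaling, 65 of the 86 members were past an adjusted p of 0.05 and higher after heat shock (75.6%, where 21.4% of all tested genes were called higher), and 1 was lower (18.6% of all tested genes). The median member change was 0.29 on the log2 scale, beside -0.02 for all tested genes, and 84 of the 86 fold changes were positive. With library totals, edgeR called 75 of the 86 lower (87.2%, where 71.2% of all tested genes were called lower) and 0 higher (8.75% of all tested genes), also at an unadjusted p under 0.05 and with DESeq2. As a share of the library, 78 of the 86 were lower in both heat shock libraries than in both untreated libraries (78.1% of all tested genes were) and 0 were higher (11.6%). The median was then -0.25 beside -0.56 for all tested genes, and 54 members were called higher under TMM and lower under totals. The members thus lay above the median gene and below an equal share of the library, and the sign of a single member's change follows from the scaling.

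Leaving out 1 library kept the direction of all 66 calls under TMM and all 75 under totals. The number called moved with the library left out, in both directions under TMM and downward under totals. The median change then ran from 0.26 to 0.30 under TMM and from -0.29 to -0.22 under totals. With library totals taken without the 16 heat shock genes, 21 members were called higher and 2 lower, with a median of 0.11.

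**Figure D2:**
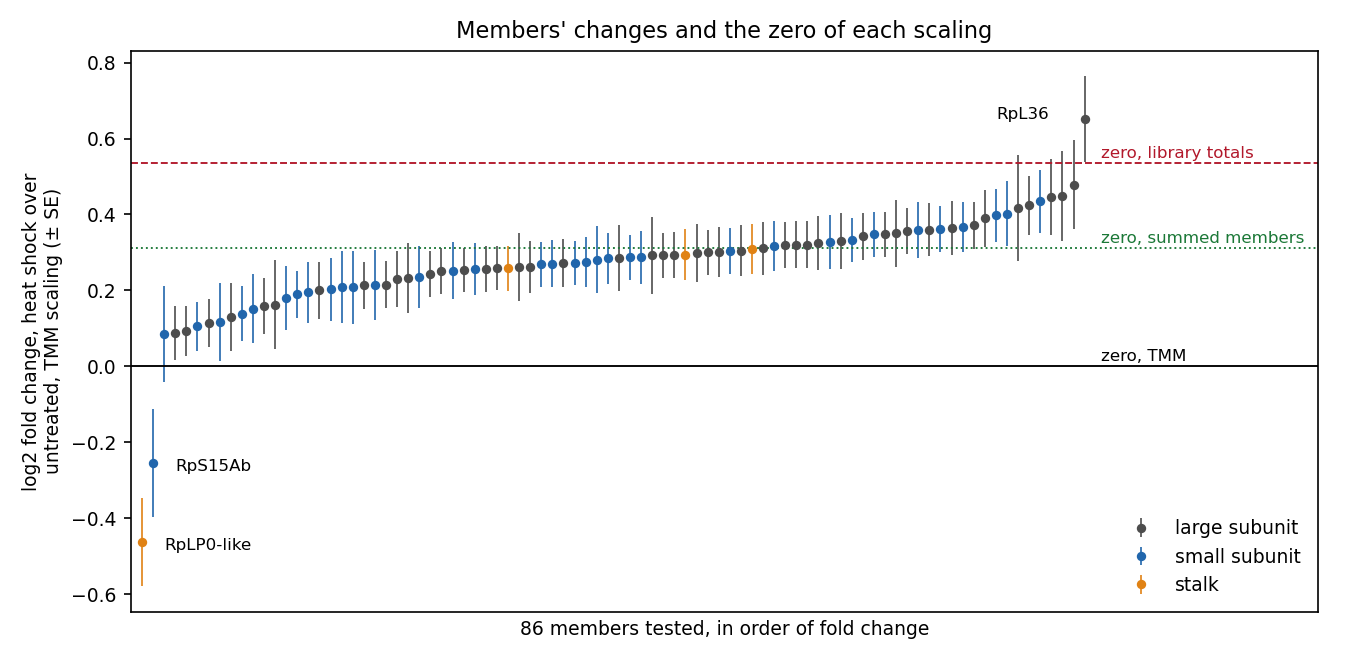
Log2 fold change of heat shock over untreated for the 86 members tested, in order, with TMM scaling and its standard error. The solid line is no change under TMM, the dashed line is where no change lies under library totals (0.54 higher) and the dotted line where it lies under scaling on the summed members (0.31 higher). Nearly all members sit between the solid and the dashed line, with RpL36 above the dashed line and RpS15Ab and RpLP0-like below the solid line.

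The members moved as a narrow band. Their TMM fold changes had an SD of 0.14 and an interquartile range of 0.12 on the log2 scale, against an SD of 1.08 and an interquartile range of 0.55 for all 8784 genes tested. Among highly expressed genes, the 83 members of at least 100 CPM (counts scaled to library depth) had an interquartile range of 0.11, against 0.36 for the 1777 tested genes at that level. Short genes of that level lay nearer to the members, since the 74 tested genes under 1 kb and of at least 100 CPM that are not members had a median of 0.19 and an interquartile range of 0.32. Members are short, with deposited lengths of 288 to 1558 bases and a median of 645. Their change against the summed members was weakly related to length across the 86 genes (Pearson's r = -0.30, Spearman's rho = -0.33, a description over genes that share 4 libraries). The same change was more closely related to the log2 of mean untreated TPM (r = 0.70, rho = 0.57), with members of lower level falling further. What that relation reflects was not tested.

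The large and the small subunit shared the band. Of 47 large subunit members tested, 39 were called higher under TMM and 8 were not called, with a median of 0.30. Of 35 small subunit members, 23 were called higher and 12 were not, with a median of 0.27. The difference between those counts was not tested. The 29 members that hold snoRNA genes within their limits (76 snoRNA genes in all), whose introns supply guides for rRNA modification, had a median of 0.26, beside 0.29 for the 57 other members tested. By chromosome arm the medians ran from 0.24 on 3L to 0.29 on X, with RpS3A, the only member on chromosome 4, at 0.09.

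The levels themselves spanned a wide range within the ribosome. Among the 79 single or main copies, mean TPM ran from 503 to 12566 after heat shock, with a median of 2666, and from 624 to 14121 in untreated cells, with a median of 3037, so that the highest stood 22.6-fold over the lowest in untreated cells. RpS9, a small subunit protein at the mRNA entry site, was lowest in both. RpL28 (chromosome arm 3L, 3220911 to 3222960) had 13929 and 11202 TPM in heat shock libraries, against 11882 and 13895 TPM in untreated libraries. RpL35 (X, 5672401 to 5673547), which lies near the peptide exit tunnel, had 12058 and 12401 TPM after heat shock, against 14171 and 14070 TPM in untreated cells. RpL28 thus overlapped between the groups, whereas RpL35 was lower in both heat shock libraries. RpLP1, RpL15 and RpL34b followed, at mean levels of 9969, 9260 and 7987 TPM after heat shock and 11535, 10371 and 8368 TPM in untreated cells. RpL28 led after heat shock and RpL35 in untreated cells, by gaps smaller than the SD of RpL28 (1928 TPM after heat shock and 1423 TPM in untreated cells, n = 2 each), and RpLP1, RpL15 and RpL34b kept their order in the means.

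RpL36, a large subunit protein encoded at the tip of X (628338 to 629483), stood highest among the changes. It had 1141 and 933 CPM in heat shock libraries, against 875 and 1035 CPM in untreated libraries, where CPM is a share of the library total. These values overlap, and under library totals the change was 0.12 on the log2 scale (edgeR adjusted p = 0.273), the single positive value among the 86. Under TMM it was 0.65 ± 0.11 (SE, adjusted p = 0.00263), and against the summed members 0.34 ± 0.10 (adjusted p = 0.0183). The last call was lost without heat shock library 1 (adjusted p = 0.242) and without untreated library 1 (adjusted p = 0.0556). RpL28 and RpL34b had TMM changes of 0.48 and 0.45, and both overlapped between the groups in share of the library. Their TMM calls (edgeR adjusted p = 0.0125 and 0.0169) were lost with DESeq2 (adjusted p = 0.0973 and 0.156). With 1 library left out, the changes ran from 0.32 to 0.63 and from 0.30 to 0.61.

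The other end was formed by RpLP0-like, a gene on 2R (10098518 to 10099590). Its yeast relative Mrt4 is an assembly factor that holds the place of P0 on the immature large subunit, so the name places it with the stalk although it is no stalk protein there. It had 12.09 and 13.96 CPM in heat shock libraries (145 and 148 counts), against 27.30 and 24.63 CPM in untreated libraries (279 and 255 counts). Both heat shock values are lower than both untreated values. The log2 change was -0.46 ± 0.12 under TMM (edgeR adjusted p = 0.0143), -0.998 under library totals and -0.77 ± 0.12 against the summed members (adjusted p = 0.000857). It was the one member called lower under all 3 scalings. The TMM call was lost without heat shock library 1 (adjusted p = 0.091) and with DESeq2 (adjusted p = 0.141), and the call against the summed members held with each library left out.

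The stalk proteins proper moved with the rest. RpLP0, the base of the stalk, had 963 and 932 CPM in heat shock libraries, against 1150 and 1145 CPM in untreated libraries, a TMM change of 0.26 ± 0.06 (edgeR adjusted p = 0.00957), a call that was lost without heat shock library 1 (adjusted p = 0.0799). RpLP1 and RpLP2, its dimer partners, changed by 0.31 ± 0.07 and 0.29 ± 0.07 under TMM, and all 3 were lower under library totals by 0.23 to 0.28. The RpLP1 call under library totals was lost with limma on log2 TPM (adjusted p of 0.114 to 0.132). Calls of RpLP1 and RpLP2 under totals were also lost in some fits without 1 library. Across those fits the changes ran from -0.27 to -0.18 for RpLP1 and from -0.30 to -0.18 for RpLP2. Per length, RpLP1 and RpLP2 were far apart: RpLP1 averaged 9969 ± 238 TPM after heat shock and 11535 ± 485 TPM in untreated cells (SD, n = 2 each), and RpLP2 averaged 838 ± 48 TPM after heat shock and 978 ± 52 TPM in untreated cells.

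Against the summed members, edgeR called 1 gene higher, RpL36 (11.3% of all tested genes were called higher), and 6 lower, which is 6.98% of the members where 54.2% of all tested genes were called lower. By that share, 9 members did not overlap between groups and were higher after heat shock (16.3% of all tested genes), and 19 were lower (66.8%). The 6 were RpLP0-like, RpS15Ab, RpL22, RpL34a, RpS2 and RpL13, the last of which is named because it completes the count. RpL22 (X, 762560 to 765130), whose fly protein carries a histone-like extension, had 530 and 574 CPM in heat shock libraries, against 794 and 713 CPM in untreated libraries. RpS2 (2L, 9896265 to 9897552), a protein of the mRNA entry site, had 328 and 348 CPM in heat shock libraries, against 474 and 439 CPM in untreated libraries. Both were lower in each heat shock library and fell by 0.22 and 0.21 against the summed members (adjusted p = 0.0251 and 0.0232). Under TMM their changes were 0.09 and 0.11 and not past the threshold (adjusted p = 0.347 and 0.227). These calls depended on single libraries, with 1 lower call left without heat shock library 1 and 2 without heat shock library 2 or untreated library 1, and 17 without untreated library 2.

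The members also differed between libraries of the same group, and in a shared pattern. As a share of the summed members, RpL36 was 12.6‰ and 10.6‰ in heat shock libraries 1 and 2, against 8.34‰ and 10.02‰ in untreated libraries 1 and 2. RpS3A (chromosome 4, 65225 to 67207) was 3.05‰ and 3.98‰ in heat shock libraries, against 4.56‰ and 3.66‰ in untreated libraries. Heat shock library 1 and untreated library 2 thus lay on the same side, high in RpL36 and low in RpS3A. Across the 86 members, the log2 ratio of untreated library 2 to 1 and that of heat shock library 1 to 2, which share no library, had Pearson's r of 0.89 and Spearman's rho of 0.90, and 72 of the 86 had the same sign. The same ratios over 1694 other tested genes of at least 100 CPM had r of 0.46 and rho of 0.54. The SD of the members' log2 ratios was 0.25 between heat shock library 1 and untreated library 1. It was 0.14 between heat shock library 1 and untreated library 2. Heat shock library 2 gave 0.14 and 0.12 against untreated libraries 1 and 2. Between the heat shock libraries the SD was 0.15, and between the untreated libraries 0.14. Across groups, only heat shock library 1 against untreated library 1 thus spread more than the heat shock libraries did between themselves. Across the members, the change against the summed members also went with the ratio of untreated library 2 to 1 (r = 0.66, rho = 0.77). It went with the ratio of heat shock library 1 to 2 as well (r = 0.55, rho = 0.69). Each of these ratios shares libraries with the change. What the shared pattern reflects was not tested.

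**Figure D3:**
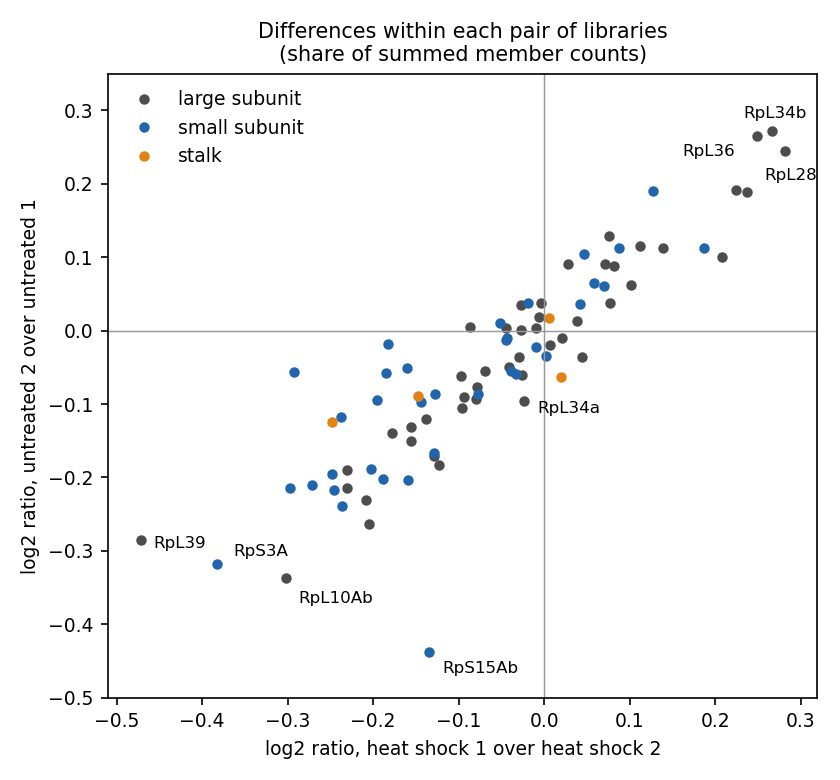
Each point is 1 of the 86 members tested, placed by the log2 ratio of heat shock library 1 to 2 (horizontal) and of untreated library 2 to 1 (vertical), both as shares of the summed member counts. The points run along the diagonal (r = 0.89), with RpL36, RpL28 and RpL34b at the upper right, and RpL39, RpS3A, RpL10Ab and RpS15Ab at the lower left.

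RpL39, the shortest member and the lowest in heat shock library 1 against library 2, was named after its values were seen. It had 145 and 196 CPM in heat shock libraries, against 205 and 166 CPM in untreated libraries, so the groups overlapped. Its TMM change was 0.42 ± 0.14 (edgeR adjusted p = 0.0432), although it lies at the same end of the pattern within groups as RpS3A, which changed by 0.09 ± 0.13.

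Second copies of ribosomal protein genes are often used in the germline of flies. In these cells 7 of the 14 second copies were expressed well enough to test, and 7 were not tested: RpL37-2 and RpS28-like had 0 counts in all 4 libraries, and RpL10Aa, RpL22-like, RpS10a, RpS19b and RpS28a had at most 12 counts in a library. RpL22-like, a copy used in the testis, had 2 and 1 counts in heat shock libraries, against 2 and 1 in untreated libraries. RpS19b, a germline copy, had 0 and 8 counts after heat shock, against 12 and 6 in untreated cells, where the main copy RpS19a had 1807 and 1819 CPM after heat shock and 2189 and 2169 CPM in untreated cells. A count of 0 is limited by a floor of 3 counts, which is 0.25 to 0.29 CPM here. Of the germline and gonad markers, bam, bol, osk and topi each reached 1 TPM in all 4 libraries, with a list sum of 28.6 and 25.7 TPM after heat shock and 29.4 and 33.9 TPM in untreated cells, while vas, a defining germline gene, had at most 0.30 TPM. The part of germline-type expression in the levels of second copies was not tested.

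Among the expressed pairs, the shares of RpL7-like and RpS14a overlapped between the groups. The share of RpL24-like was higher in both heat shock libraries, by 0.16 percentage points in the means, and the Wilson intervals of its 4 libraries overlapped. RpL24-like and RpL7-like, whose yeast relatives Rlp24 and Rlp7 are assembly factors of the large subunit, held 8.64% and 8.76% of the RpL24 pair and 12.3% and 10.5% of the RpL7 pair after heat shock, against 8.49% and 8.58%, and 10.8% and 12.1%, in untreated cells. Both were called higher under TMM and lower under library totals, with TMM changes of 0.37 ± 0.06 and 0.29 ± 0.10 (edgeR adjusted p = 0.00216 and 0.0470). The call of RpL7-like was lost without heat shock library 1 (adjusted p = 0.221), without untreated library 1 (0.126) and with DESeq2 (0.0658). Under library totals the RpL7-like call was lost without heat shock library 2 (adjusted p = 0.317), without untreated library 2 (0.235) and with limma on log2 TPM (0.0820 to 0.0881). The RpL24-like call under library totals was lost with any 1 library left out (adjusted p of 0.0898 to 0.161), with DESeq2 (0.0980) and with no filter on low counts (0.0717). These relatives of assembly factors lay on the other side of 0 from RpLP0-like under TMM. RpS14a and RpS14b, which lie side by side on X (7933742 to 7934677 and 7934898 to 7935792) and encode the same protein, were expressed at similar levels (RpS14a is counted among the second copies although it had more counts), with RpS14a at 52.4% and 56.5% of the pair after heat shock and 56.9% and 55.5% in untreated cells. Their reads are partly shared, with posterior SDs of 51 to 58 counts on estimates of 3972 to 6024, and the groups overlapped. RpL7-like and RpS15Ab also shared reads, with posterior SDs of 13.9 to 17.3 counts on estimates of 1782 to 2446 and of 8.05 to 10.9 counts on estimates of 186 to 348, so that the SD was largest relative to the count for RpS15Ab. The posterior SDs of RpL24-like and RpLP0-like were 0.

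RpS15Ab, RpL34a and RpLP0-like each held a smaller part of their pair in both heat shock libraries. RpS15Ab (2R, 10821676 to 10822399), an intronless copy by its single annotated exon, had 16.5 and 17.5 CPM in heat shock libraries, against 34.1 and 24.7 CPM in untreated libraries, which is 3.43% and 3.41% of its pair after heat shock and 5.42% and 4.33% in untreated cells. It fell by 0.57 ± 0.15 against the summed members (edgeR adjusted p = 0.00981) and its TMM change of -0.25 was not past the threshold (adjusted p = 0.188). The call against the summed members was lost without either heat shock library (adjusted p = 0.128 without library 1 and 0.0695 without library 2). RpL34a (3R, 26058420 to 26059267) had 89.9 and 88.8 CPM in heat shock libraries, against 126 and 116 CPM in untreated libraries, while the main copy RpL34b had 2873 and 2320 CPM after heat shock and 2515 and 2987 CPM in untreated cells. RpL34a thus did not overlap between groups and RpL34b did, and RpL34a held 3.04% and 3.69% of the pair after heat shock, against 4.79% and 3.75% in untreated cells. For RpL34a the Wilson intervals of heat shock library 2 (3.46 to 3.92%) and untreated library 2 (3.55 to 3.96%) overlapped. For RpS15Ab the intervals of heat shock libraries 1 and 2 (2.99 to 3.93% and 2.96 to 3.93%) both overlapped that of untreated library 2 (3.84 to 4.88%) at their ends. RpLP0-like held 1.24% and 1.48% beside RpLP0 in heat shock libraries, against 2.32% and 2.11% in untreated libraries.

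**Figure D4:**
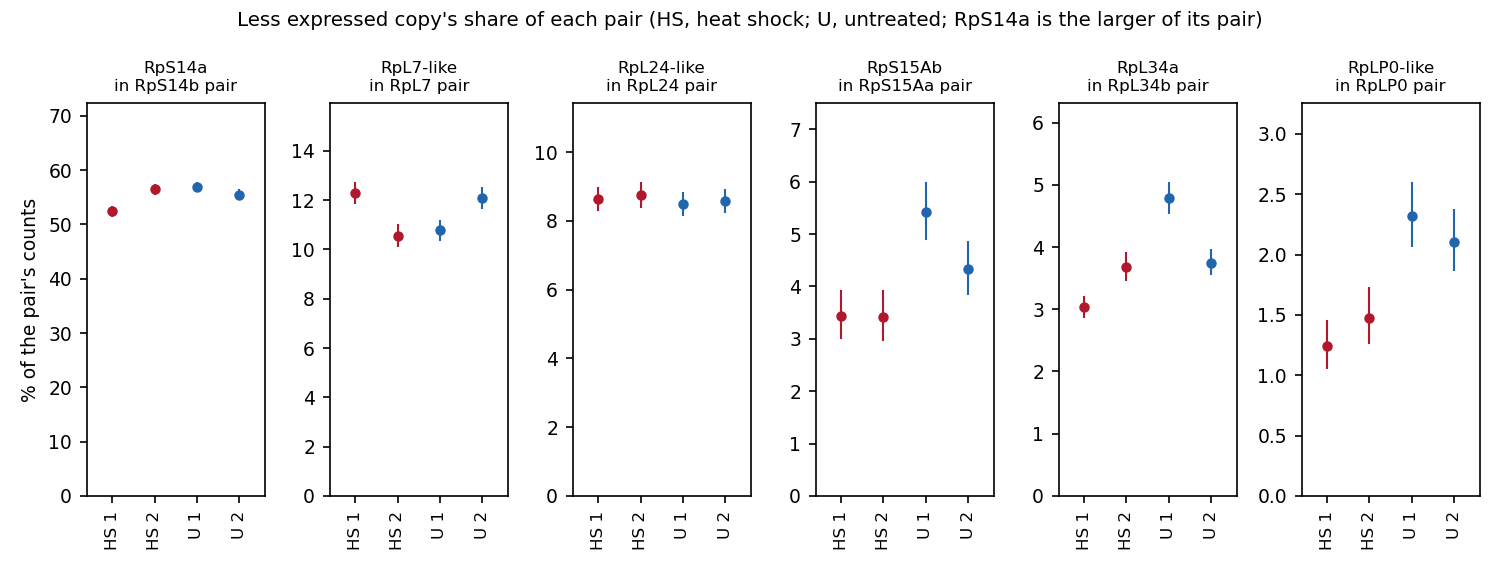
Share of each pair's estimated counts held by the named copy in each library (points) with 95% Wilson intervals, which cover counting error only. Each panel has its own axis from 0, with heat shock libraries in red on the left and untreated libraries in blue on the right. RpLP0-like (1.24% and 1.48% after heat shock, 2.32% and 2.11% untreated), RpS15Ab and RpL34a lie lower in both heat shock libraries, while RpS14a and RpL7-like overlap. RpL34a is near a tie between heat shock library 2 and untreated library 2, and RpL24-like lies slightly higher in both heat shock libraries.

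A pair of members, RpL40 and RpS27A, are made as fusions to ubiquitin, the protein tag for degradation, and so supply both ribosomes and free ubiquitin. RpL40 (2L, 4227699 to 4228561) had 1204 and 1062 CPM in heat shock libraries, against 1185 and 1260 CPM in untreated libraries. RpS27A (2L, 10408352 to 10410456) had 1008 and 993 CPM in heat shock libraries, against 1123 and 1134 CPM in untreated libraries. Their TMM changes of 0.42 ± 0.08 and 0.36 ± 0.06 (edgeR adjusted p = 0.00349 and 0.00226) lay within the range of the other members, and under library totals the changes were -0.11 and -0.17 (adjusted p = 0.196 and 0.0242). The call of RpS27A under library totals was lost with any 1 library left out (adjusted p of 0.0517 to 0.117) and with limma on log2(TPM + 1) (0.110). The polyubiquitin gene Ubi-p63E differed, with 986 and 1129 CPM after heat shock against 532 and 422 CPM in untreated cells and a TMM change of 1.69 ± 0.11 (adjusted p = 1.02e-05). Without the fusions the members' share of the library differed by -1.48 percentage points in place of -1.50.

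RpL32, known as rp49 and widely used as a reference in qPCR, had 1570 and 1441 CPM in heat shock libraries, against 1656 and 1730 CPM in untreated libraries. It was lower in both heat shock libraries as a share of the library, by 0.17 on the log2 scale (edgeR adjusted p = 0.0395), and changed by 0.36 ± 0.07 under TMM (adjusted p = 0.00434). The call under library totals was lost without heat shock library 2 (adjusted p = 0.299), without untreated library 2 (0.128) and with limma on log2 TPM (0.180 to 0.195). The sta gene had 1018 and 950 CPM after heat shock, against 1128 and 1161 CPM in untreated cells, and its TMM change of 0.32 ± 0.07 lay close to the member median.

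Other genes of the translation machinery were set beside the members from lists by function. Mitochondrial ribosomal proteins, which build the ribosome of the organelle, were called higher in 0 and lower in 22 of 72 genes under TMM, with a median of -0.33, where 21.4% of all tested genes were called higher and 18.6% lower. No gene of that list was higher at an unadjusted p under 0.05 or with DESeq2 or limma-voom, and DESeq2 called 3 lower. Without heat shock library 2, 1 was called higher. Against the summed cytosolic members, 55 of the 72 were called lower (54.2% of all tested genes), with a median of -0.64. Cytosolic and mitochondrial ribosomal proteins thus lay on opposite sides of the median gene. They also differed in level. The mitochondrial list held 0.072% and 0.070% of counts after heat shock, against 0.128% and 0.124% in untreated cells. All tested genes of at least 100 CPM had a median TMM change of 0.09, above that of all tested genes. The part of level in this contrast was not tested.

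Ribosome assembly factors lay with the mitochondrial proteins. Of 21, 12 were called lower and 1 higher under TMM (all tested genes, 18.6% and 21.4%), with a median of -0.32, 20 were lower against the summed members (54.2%), and all 21 were lower under library totals (71.2%). Nmd3, the export adaptor of the large subunit, had 18.3 and 18.4 CPM in heat shock libraries, against 41.9 and 40.8 CPM in untreated libraries, a TMM change of -0.64 ± 0.08 (edgeR adjusted p = 0.000631). Polr1B, the second largest subunit of the RNA polymerase that transcribes rDNA, had 42.3 and 46.9 CPM after heat shock, against 108 and 106 CPM in untreated cells, a TMM change of -0.73 ± 0.08. Both were lower in each heat shock library. Non1, a nucleolar GTPase and the most abundant of the list, was the one called higher under TMM, at 0.24 ± 0.07, a call that was lost without either heat shock library.

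Translation factors lay between the assembly factors and the ribosomal proteins. Of 37, 16 were called higher and 1 lower under TMM (all tested genes, 21.4% and 18.6%), with a median of 0.15. Under library totals 34 were lower (71.2% of all tested genes), and against the summed members 19 were lower and 1 higher (54.2% and 11.3%), with a median of -0.16. Without heat shock library 1, 10 were called higher under TMM and 6 lower against the summed members. Rack1, which sits on the small subunit, had 1383 and 1283 CPM in heat shock libraries, against 1562 and 1506 CPM in untreated libraries, and its TMM change of 0.33 ± 0.06 lay within the band of the members. eEF2, the translocation factor, had 6544 and 6708 CPM after heat shock, against 9454 and 8662 CPM in untreated cells, and fell by 0.23 ± 0.07 against the summed members (edgeR adjusted p = 0.0201). eEF1delta was the one called lower under TMM, at -0.62 ± 0.09. eEF1alpha2, the second gene for elongation factor eEF1A, was the one called higher against the summed members, at low levels of 2.75 and 2.92 CPM after heat shock and 0.489 and 0.966 CPM in untreated cells.

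**Figure D5:**
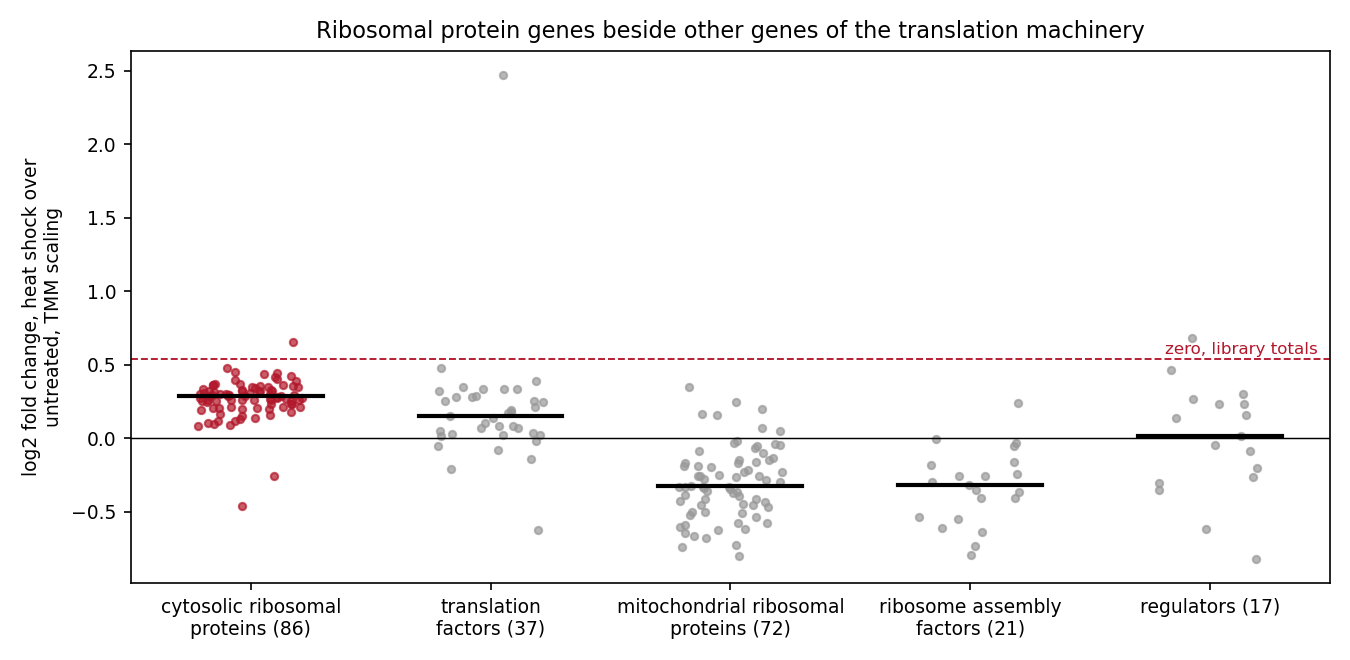
Log2 fold change of heat shock over untreated with TMM scaling for the 86 members tested (red) and for genes of 4 other lists (grey), with the number of genes tested in parentheses. Each point is 1 gene, black bars are medians, the solid line is no change under TMM and the dashed line no change under library totals. Members form a narrow band around 0.29, with translation factors around 0.15, regulators around 0.01, and mitochondrial ribosomal proteins and assembly factors around -0.33 and -0.32.

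Genes known to regulate ribosomal protein genes or their mRNAs did not share a direction, with 5 of 17 called higher and 6 lower under TMM (all tested genes, 21.4% and 18.6%) and a median of 0.01, and with 15 lower under library totals (71.2%). Without heat shock library 1 or untreated library 1, 3 were called lower under TMM. Myc, the transcription factor that drives growth, had 557 and 535 CPM in heat shock libraries, against 484 and 504 CPM in untreated libraries (TMM change 0.68 ± 0.06, edgeR adjusted p = 0.00011). The larp gene had 674 and 658 CPM after heat shock, against 1429 and 1531 CPM in untreated cells (TMM change -0.62 ± 0.07). Thor, the fly 4E-BP that represses cap-dependent translation, had 153 and 130 CPM after heat shock, against 351 and 375 CPM in untreated cells (TMM change -0.82 ± 0.09). Myc was thus higher and the translational regulators Larp and Thor lower in both heat shock libraries. Under library totals the Myc change was 0.15 and not past the threshold (edgeR adjusted p = 0.060). The larp and Thor changes were then -1.15 and -1.36, and both were called lower. M1BP and Dref, which bind ribosomal protein gene promoters, were lower under TMM by 0.31 ± 0.10 and 0.20 ± 0.07 (edgeR adjusted p = 0.0449 and 0.0486). Both calls lie near the threshold, and DESeq2 called 4 of the 17 regulators higher and 2 lower. Trf2, the TBP relative used at those promoters, was higher under TMM by 0.23 ± 0.07 (adjusted p = 0.0221). As a share of the library, Trf2 was lower, at 750 and 743 CPM after heat shock against 892 and 945 CPM in untreated cells. The sign of its change thus follows from the scaling.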

How the data were processed

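Poly(A) RNA of 4 libraries was sequenced in the study. Per the labels, the submitters' processing notes name Trimmomatic 0.36, STAR 2.6.1c and RSEM 1.3.1 with the dm6 (BDGP6) assembly, and whether counting used strand is not given in the sources used here, so reads of overlapping genes cannot be told apart. Files deposited by the authors hold estimated counts per gene, TPM, FPKM and posterior SDs; FPKM and pooled tables were not used. TPM deposited by the authors served for levels and alternatives.

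Symbols matched 17570 of 17697 IDs in Ensembl's BDGP6 annotation, which gave coordinates. After rounding of the estimated counts and filtering with filterByExpr, glmQLFTest of edgeR 4.0.16 (R 4.3.3) compared the groups, TMM factors being 0.837 and 0.825 for heat shock libraries and 1.22 and 1.18 for untreated libraries. P-values were Benjamini-Hochberg adjusted over 8784 genes, with a threshold of 0.05. SEs came from the F statistic. The fits were tested on simulated data with planted changes in both directions. Those data held no large rise of heat shock genes, so they do not check the choice of scaling. Alternatives used DESeq2 1.42.0 and limma 3.58.1, other filters and scalings, and left-out libraries.

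Named members were the 5 highest and 5 lowest TMM changes, the pairs, ubiquitin fusions, stalk genes, sta, RpL32, the 5 of highest TPM, and up to 5 in each direction called against the summed members. Members, lists and this rule were chosen with earlier results of these data known. Some members that the rule names are not reported here.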

Additional observations from a re-analysis of the deposited data

How the results depend on the processing

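The number of libraries limits every result: with 2 in a group, the share of the library cannot reach a permutation p below 0.333, and differences between members of the size seen within a group cannot be told from the spread. Depth limits only the second copies, of which 7 stayed at or near 0 counts. Each library left out in turn leaves a lone sample that is assumed to vary like the other group. Across such fits the number of members called higher under TMM ran from 43 to 77, called lower from 0 to 2, and the median change from 0.26 to 0.30. Under library totals, 48 to 67 were called lower and 0 to 1 higher. Against the summed members, 0 to 5 were called higher and 1 to 17 lower. Under TMM the 0 lower calls came without heat shock library 1 and the 2 without untreated library 2. The 1 higher call under library totals and the 5 higher and 17 lower calls against the summed members came without untreated library 2.

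Under TMM, no filter on low counts gave a median of 0.24, DESeq2 called 0 members lower (58 higher), and a threshold of 0.01 left 42 higher and 0 lower. Under library totals, limma on log2(TPM + 1) called 49 lower. With the replicate number as a block, 60 were higher and 1 lower under TMM, 64 were lower under library totals, and against the summed members 1 was higher and 2 lower. Same-numbered libraries did not deviate together (correlation of -0.17 over tested genes and -0.89 over members), so the numbers do not pair the libraries. With the crossed pairing, chosen after the data were seen, 80 were higher and 2 lower under TMM, 80 lower and 1 higher under library totals, and 6 higher and 23 lower against the summed members.

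Taking the 16 heat shock genes out of the total turned the difference in share to 1.04 percentage points, and as a share of TPM it was -3.79 points. With library totals taken without those genes, 21 members were called higher and 2 lower with a median of 0.11, of the 75 lower calls 13 kept their direction, and these single changes became positive by the construction of that total: RpL28 0.31, RpL34b 0.28, RpL40 0.25, RpL24-like 0.20, RpL32 0.19, RpS27A 0.19, RpL15 0.19, RpS28b 0.17, RpL24 0.17, RpS14b 0.16, sta 0.14, RpLP1 0.13, RpL35 0.13, RpLP2 0.12, RpL7 0.12, RpL7-like 0.12, RpS15Aa 0.11, RpS19a 0.096, RpLP0 0.085, RpL37-1 0.084, RpS14a 0.061 and RpS10b 0.040. With 1 library left out, changes of uncalled members crossed 0 under TMM for RpS3A (-0.11 to 0.26), and under library totals for RpL36 (-0.033 to 0.26), RpL28 (-0.22 to 0.10) and RpL34b (-0.25 to 0.062). The cause of the other differences was not tested.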
